A study of Mus musculus with 10 samples.

Results

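The short chromatin interactions are pairs of 10 kb bins of one chromosome that lay under 2 Mb apart and were listed as significant when mouse embryonic stem cells were assayed by exo-Hi-C. They were chosen by distance alone, outside 6 windows in which earlier work on these lists had found many repeated distant contacts. The windows, in the mm9 build, were chr7 39 to 46.8 Mb, chr12 18 to 25.5 Mb, chr14 3 to 8.5 Mb, chr8 72 to 74.6 Mb, chr13 60.9 to 69 Mb and chr4 142.5 to 148 Mb. The rule found 1943 distinct bin pairs among 14670 distinct pairs in all 10 lists. Together they were listed 2872 times, once for each library that held them, and a further 425 distinct pairs under 2 Mb fell in the windows and were left out.

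Hi-C ligates DNA ends that lie close together in the nucleus, so a read pair joining 2 bins records a contact between them, and exo-Hi-C adds an exonuclease step that removes linear DNA after ligation. The 10 libraries came from ES-E14TG2a, a mouse embryonic stem cell line, kept without feeder cells in serum medium with LIF and inhibitors of GSK3b and MEK. There were 2 libraries each of WT cells, of cells lacking the enhancer E1 (E1-KO), E2 (E2-KO) or E3 (E3-KO), and of cells lacking both E1 and E3 (E1&E3-dKO). WT cells carried none of these deletions, and the medium and line were the same in all groups. The labels give neither the position of the enhancers nor whether the 2 libraries of a genotype were grown or cloned apart, and p-values here then measure only a spread between libraries that may be technical. Titles of 4 libraries carry the name w326 (WT replicate 1, both E2-KO replicates and E3-KO replicate 2), and the other 6 have other titles, so differences between libraries are also given within these 2 sets. The lists hold DNA contacts, and neither the cell type nor the deletions can be checked in them.

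In mammalian nuclei the cohesin ring extrudes chromatin into loops and is halted at bound CTCF, which leaves stretches of self-contact called topologically associating domains (TADs). A loop that joins both edges of a TAD appears in a contact map as a focal dot at the corner of the domain, while contacts between enhancers and promoters often lie inside one domain. Contacts that cross an edge are rarer at the same distance. The TAD lists used here were made from the same libraries as the interactions, so the lists do not describe separate experiments.

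Short interactions were found at TAD corners far more often than moved copies of themselves in all 10 libraries. A pair was called a corner pair when both its bin centres lay within 20 kb of the start and the end of a single TAD of the same library. Each pair was also moved, with its distance kept, by 1 to 5 Mb up and down the chromosome in 10 steps, and the moved pairs were classed in the same way. The corner share was 38.0% in WT replicate 1 and 10% in WT replicate 2. It was 29.7% and 19.2% in E1-KO replicates 1 and 2, and 12.9% and 15.8% in those of E2-KO. It was 28.0% and 13.6% in E3-KO replicates 1 and 2, and 30.1% and 14.5% in those of E1&E3-dKO. Moved pairs were at a corner in 0% to 1.00% of cases, with a median of 0.45% over the libraries. The share of listed pairs was thus above that of moved pairs in 10 of 10 libraries at this tolerance. Libraries of one genotype were closest in E2-KO, and in WT they held the highest and the lowest share of all. The lowest rests on 2 corner pairs of 20 in WT replicate 2, and the highest on 116 of 305 in WT replicate 1.

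**Figure D1:**
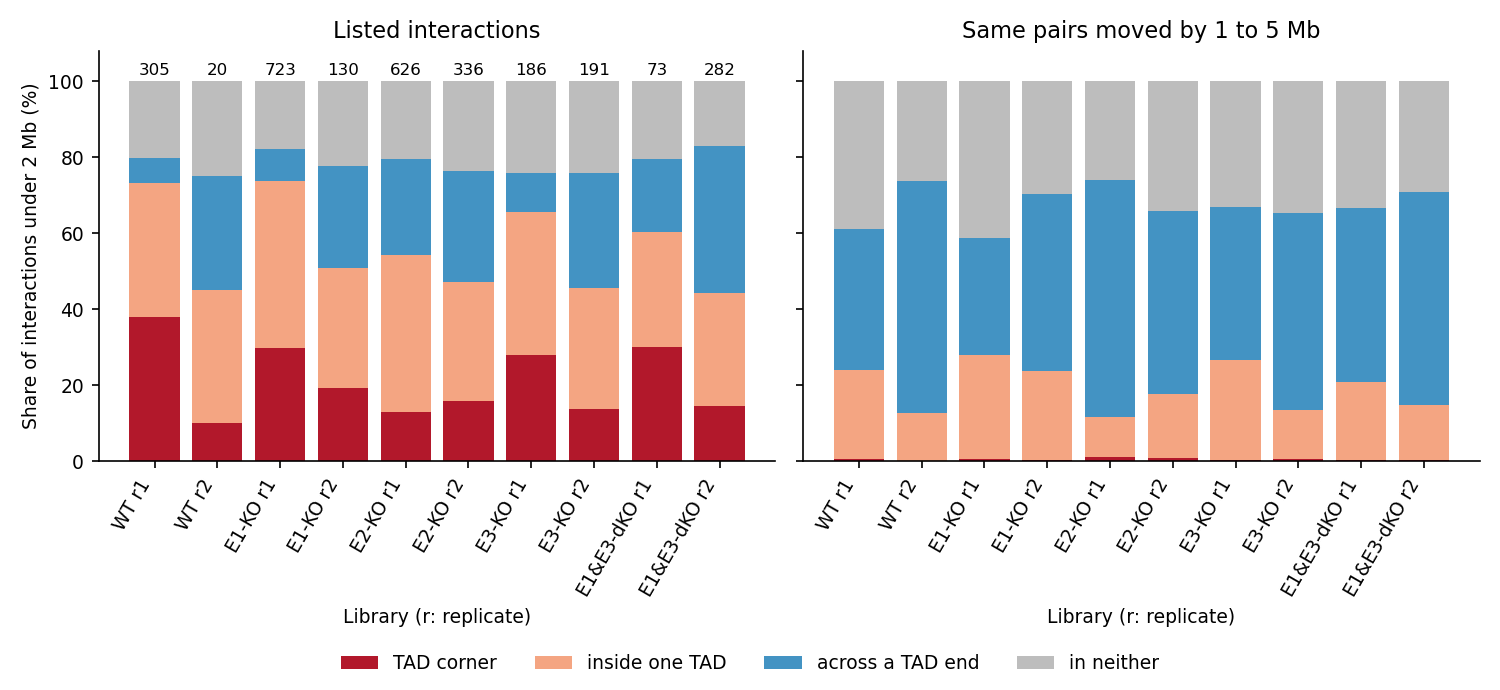
Stacked bars give the share (%) of interactions under 2 Mb in each library that lay at a TAD corner, inside one TAD, across a TAD end or in neither class, for the listed pairs (left, number of pairs above each bar) and for the same pairs moved by 1 to 5 Mb (right). Corner pairs make up 10% to 38.0% of the listed pairs and at most 1.00% of the moved ones.

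Interactions within one domain, away from its corner, were also more frequent than among moved pairs. They made up 29.8% to 44.0% of the listed pairs (median 33.5%), against 10.7% to 27.4% of the moved pairs, and were above them in 10 of 10 libraries. Interactions across a TAD end were less frequent, with 6.56% to 38.7% of the listed pairs (median 26.2%) against 30.7% to 62.3% of the moved pairs, and were below them in 10 of 10 libraries. The remaining pairs, whose ends lay in one stretch between listed TADs, made up 17.0% to 25% against 26.0% to 41.3%. Over all libraries, 633 of the 2872 listings were at a corner, 1073 inside one TAD, 580 across a TAD end and 586 in neither class. No p-value is given for these shares, since pairs of one library share their reads and their TADs.

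With other TAD lists the corner share was lower at the median but still above that of moved pairs. With the TADs of the other 9 libraries, an alternative chosen after the data were seen, the corner share was 4.92% to 28.5% (median 10.5%, against 17.5% with the library's own TADs) and was above that of moved pairs in 10 of 10 libraries. With the TADs of both WT libraries pooled it was 3.66% to 42.3% (median 11.9%), again above in 10 of 10. For the WT libraries the pooled list includes their own TADs, and the 42.3% is that of WT replicate 1, against 28.5% with the other 9. The share in E2-KO replicate 1 was 4.92% and 3.83% with these lists, in E2-KO replicate 2 it was 7.31% and 6.55%, and in E3-KO replicate 2 it was 6.69% and 3.66%. With the 20 pairs of smallest p from each library the corner share was 0% to 20%, above moved pairs in 9 of 10. E2-KO replicate 2 then had 0%, WT replicate 1 had 15% and E3-KO replicate 1 had 5%. Narrowing the tolerance to 10 kb left 0.60% to 8.20% of pairs at corners, and widening it to 40 kb gave 23.5% to 49.2%.

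Pairs within 40 kb of both ends of a TAD, a wider set than the corner pairs, lay mostly inside that domain. Of 949 listed pairs within 40 kb of both ends of a TAD, 837 (88.2%) had both bin centres inside the TAD and 26 had both outside. The start-side bin centre was 15 kb into the domain in 50.9% of these pairs, and the end-side centre was 15 kb into it in 50.6%. The moved pairs within 40 kb of both ends numbered 662, and 30.7% of them had both centres inside the domain, with 12.7% and 13.6% at 15 kb from the start and the end. In single libraries, 82.4% to 92.8% of such pairs had both centres inside. A centre 15 kb inside an edge is beyond a tolerance of 10 kb and within one of 20 kb.

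**Figure D2:**
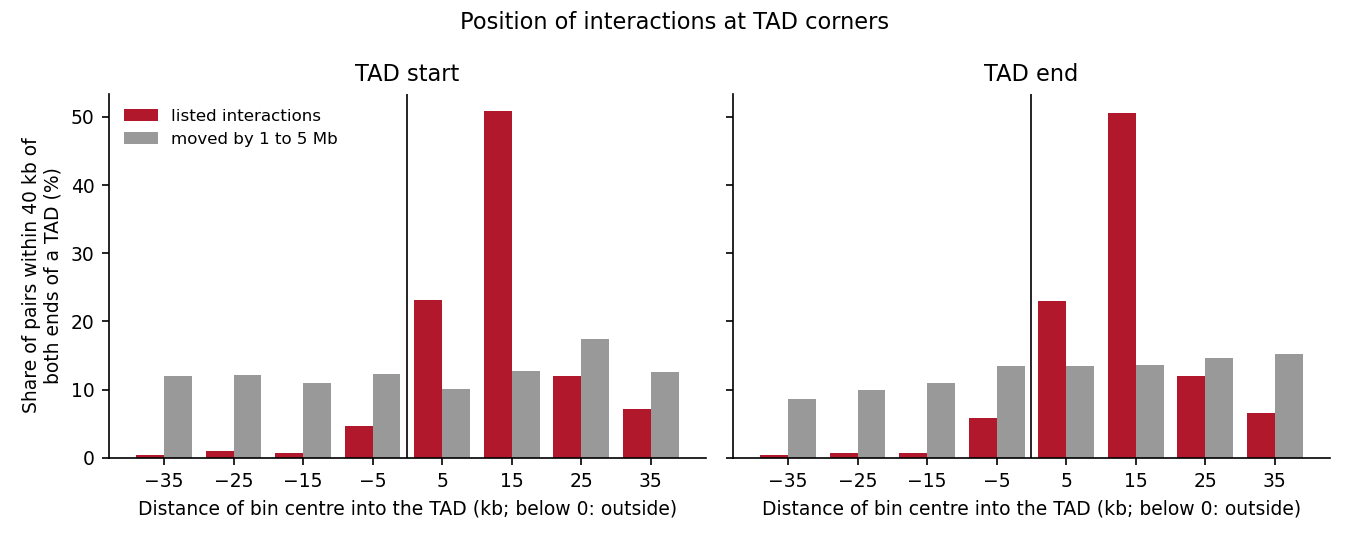
Bars give the share (%) of pairs within 40 kb of both ends of a TAD by the distance in kb of the bin centre into the TAD, at the TAD start (left) and end (right), with values below 0 outside the TAD, for listed pairs (red, 949) and moved pairs (grey, 662). The listed pairs peak 15 kb inside the domain on both sides, with 50.9% and 50.6%, and the moved pairs show no such peak.

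TADs that had a corner interaction carried higher domain scores than those that had none. The score is the value deposited with each TAD, and the median score was higher for TADs with a corner pair in 10 of 10 libraries, as in WT replicate 1 (1.87 against 1.66) and E2-KO replicate 1 (4.06 against 2.05). They were longer than the others in only 1 of 10 libraries. Corner interactions were listed for few domains, from 0.056% of the TADs in WT replicate 2 to 6.41% in E1-KO replicate 1.

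Distances clustered far below the limit of 2 Mb. The median distance was 180 and 270 kb in WT replicates 1 and 2, and 120 and 220 kb in those of E1-KO. It was 210 kb in both E2-KO libraries, 180 and 230 kb in E3-KO, and 190 and 230 kb in E1&E3-dKO. The shortest pair spanned 20 kb in every library except WT replicate 2, where it spanned 90 kb. Pairs under 100 kb made up 40.7% of E1-KO replicate 1, the highest share, and 5% of WT replicate 2, the lowest. Pairs of 500 kb and more made up 35% of WT replicate 2 and 6.36% of E1-KO replicate 1. At the limit itself, 48 listings between 1.8 and 2 Mb had a median of 4 reads, and 40 listings between 2 and 2.2 Mb, just outside the rule, had a median of 5.

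Position relative to TADs changed with distance. Corner pairs made up 15.1% of listings under 50 kb, 33.4% from 50 to 100 kb, 31.2% from 100 to 250 kb, 16.9% from 250 to 500 kb and 3.35% from 500 kb to 2 Mb. The moved pairs were at corners in 0.28%, 1.72%, 0.71%, 0.14% and 0.040% of cases in these same ranges. Pairs across a TAD end rose from 0.98% of listings under 50 kb to 49.2% from 500 kb to 2 Mb, where moved pairs crossed an end in 87.7% of cases. Pairs across a TAD end spanned longer distances than corner pairs in 10 of 10 libraries, by their medians.

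**Figure D3:**
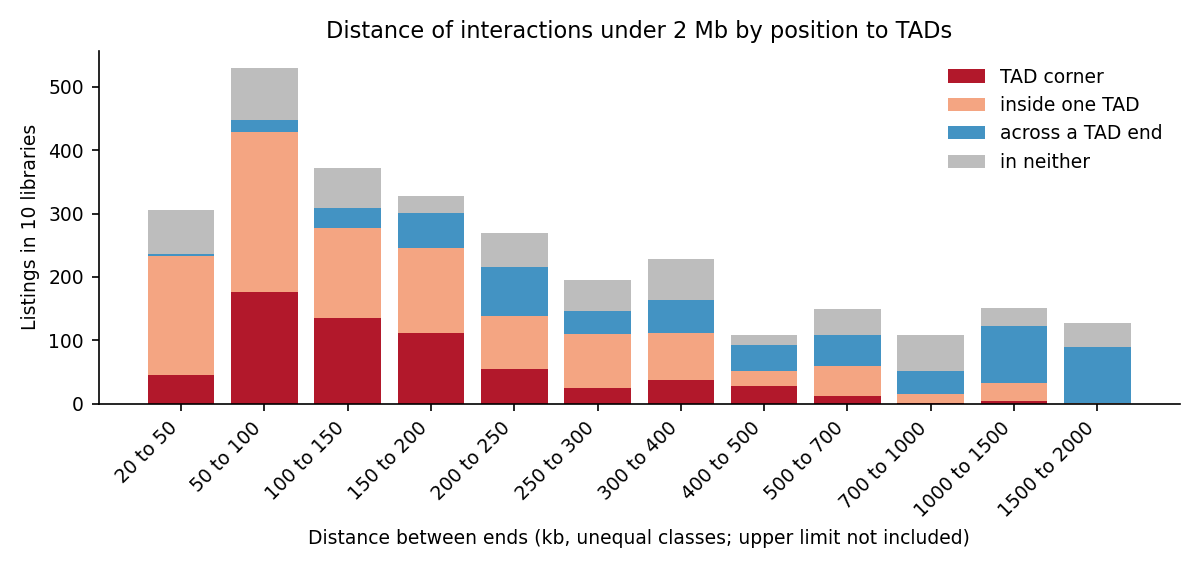
Stacked bars count the 2872 listings of interactions under 2 Mb by the distance between their ends (kb, in classes of unequal width) and by their position relative to TADs. Corner pairs are most numerous between 50 and 250 kb, and most pairs of 1500 kb and more cross a TAD end.

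The libraries differed widely in how many short interactions they listed and how many reads these had. WT replicates 1 and 2 listed 305 and 20 pairs, E1-KO replicates 723 and 130, E2-KO replicates 626 and 336, E3-KO replicates 186 and 191, and E1&E3-dKO replicates 73 and 282. WT averaged 162.5 ± 202 pairs, E1-KO 426.5 ± 419, E2-KO 481 ± 205, E3-KO 188.5 ± 3.54 and the double knockout 177.5 ± 148 (SD, n = 2 each). Only in E3-KO were both libraries close, and the E2-KO libraries alone were both above both WT libraries. Short pairs made up 67.8% of the whole list in E1-KO replicate 1, but 4.29% of that of WT replicate 2 and 4.69% of that of E1&E3-dKO replicate 2.

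Median reads per pair were 15 and 14 in the WT libraries, 18 and 13 in those of E1-KO, 8 and 13 in those of E2-KO, 14 and 11 in those of E3-KO, and 12 and 8 in the E1&E3-dKO libraries. Both E2-KO and both E1&E3-dKO libraries were below both WT libraries. The fewest reads of a listed pair were 3 to 5, and the most were 24 to 63. A pair of the same reads stands out more where fewer contacts are expected, so reads were also divided by the number of contacts expected for that pair, solved from its deposited count and p-value under a Poisson model. This enrichment had a median of 9.24 and 16.0 in the WT libraries, 7.57 and 23.2 in those of E1-KO, 98.4 and 31.5 in those of E2-KO, 12.3 and 33.0 in those of E3-KO, and 18.5 and 26.6 in the E1&E3-dKO libraries. Both E2-KO and both E1&E3-dKO libraries lay above both WT libraries.

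Depth was recovered from the same counts and p-values, so it is not independent of the enrichment. The contacts expected of an average pair of bins 1 Mb apart ranged from 0.0147 in E2-KO replicate 1 to 0.246 in E1-KO replicate 1, the libraries with the highest and the lowest median enrichment. Both E2-KO libraries (0.0147 and 0.0835) and both E1&E3-dKO libraries (0.110 and 0.0689) lay below both WT libraries (0.191 and 0.207) in depth. So did both E3-KO libraries (0.171 and 0.0721). The lowest enrichment listed ranged from 2.65 in WT replicate 1 to 8.94 in E2-KO replicate 1, and did not follow the order of depth in every library, with 4.65 in E1&E3-dKO replicate 2 (depth 0.0689) and 6.75 in WT replicate 2 (depth 0.207). The part of depth in the differences of enrichment between genotypes was not tested. Over the 10 libraries, the number of short interactions and depth had Pearson's r of -0.012 (permutation p = 0.974) and Spearman's rho of -0.16.

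Pairs across a TAD end had higher median enrichment than corner pairs in 10 of 10 libraries. They also spanned longer distances in 10 of 10, and the part of distance in this order was not tested. Pairs inside one TAD were above corner pairs in enrichment in 7 of 10. Of 866 listings under 10-fold enrichment, 34.4% were at a corner. The share was 26.3% of 890 listings from 10-fold to 30-fold, and 9.05% of 1116 listings of at least 30-fold. The median distance in these ranges was 90, 190 and 340 kb, so the shares do not separate enrichment from distance. E1-KO replicate 1 held 534 of the 866 listings under 10-fold. Library by library, the corner share was higher under 10-fold than from 10-fold to 30-fold in 5 of 10, and higher from 10-fold to 30-fold than at 30-fold and more in 10 of 10. At 30-fold and more, single libraries had 0% to 12.2% at corners, and 6 of 10 were above their moved pairs. E2-KO replicate 1 alone held 566 of these strongly enriched listings.

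No measure was shown to separate the genotypes beyond the spread between libraries. The spread within genotypes was compared with all 945 ways of pairing the 10 libraries in a one-sided exact permutation test, whose smallest possible p is 0.00106. The knockout libraries were compared with the WT libraries over the 45 choices of 2 libraries in a two-sided exact permutation test, whose smallest possible p is 0.0222. A single knockout against WT, 2 libraries against 2, cannot go below 0.333. Across 17 such tests the adjusted p (Benjamini-Hochberg) was at least 0.878. A single knockout against WT test at 0.0222, among 17 tests, would stay above 0.05 after this adjustment. The adjusted values of those tests therefore cannot decide whether WT and the knockouts differed.

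The number of short interactions had a mean log2 of 7.96 in the knockouts and 6.29 in WT, a difference of 1.67 (exact permutation p = 0.156, n = 8 and 2). This difference was 0.17 within the w326 libraries and 3.36 within the others, and without WT replicate 2 it was -0.30. The corner share less that of moved pairs averaged 20 percentage points in the knockouts and 23.8 in WT (exact permutation p = 0.644, n = 8 and 2). That difference was -24.2 points within the w326 libraries and 13.9 within the others, in opposite directions, and without WT replicate 1 it was 9.95. It was -12.6 with corners of 40 kb (exact permutation p = 0.0667), -11.1 with the TADs of both WT libraries (exact permutation p = 0.378) and -0.47 with 20 pairs per library (exact permutation p = 0.889), against -3.84 as first given. With the WT TADs, only WT pairs were classed partly by TADs of their own library. Each of the 2 sets of titles holds 1 WT library, so neither set gives a test. The enrichment differed by 0.98 on the log2 scale (exact permutation p = 0.267, n = 8 and 2), with 2.34 within the w326 libraries and 0.00016 within the others.

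Pairs across a TAD end were further below their moved copies in WT, by a mean of -30.9 points, than in the knockouts, with -24.2 points (exact permutation p = 0.244, n = 8 and 2). Both libraries of E1-KO, E3-KO and E1&E3-dKO were above both WT libraries in this measure, and E2-KO was not, with -36.9 in replicate 1 and -18.5 in replicate 2. The direction was the same in both sets of titles, with 4.86 points within the w326 libraries and 7.98 within the others. With the TADs of both WT libraries used for every library the difference was 10.5 points, and with the TADs of the other 9 libraries 12.9 points, each at the smallest p of the exact permutation test, 0.0222, without adjustment. The first of these settings treats the groups unequally, since only WT pairs are then classed partly by TADs of their own library. Other settings moved the knockout minus WT difference both ways. It was 8.85 points with corners of 40 kb (exact permutation p = 0.111) and 7.55 with the windows included (exact permutation p = 0.111). The difference was 1.76 points (exact permutation p = 0.711) when pairs were moved by 0.3 to 0.7 Mb, 3.05 (exact permutation p = 0.622) when they were moved by 10 to 14 Mb, and -4.52 (exact permutation p = 0.689) with 20 pairs per library. Among pairs of at least 30-fold enrichment it was 19.9 (exact permutation p = 0.0889).

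The corner share was lower in libraries with more TADs. Over the 10 libraries Pearson's r was -0.617 (permutation p = 0.0412, adjusted p = 0.124 over 3 relations) and Spearman's rho was -0.745 (p = 0.0171 by permutation, adjusted 0.0512). Without E2-KO replicate 1 and E1&E3-dKO replicate 2, the libraries farthest from the median number of TADs, r was -0.749 (exact permutation p = 0.0295). Within the 6 libraries without w326 in the title r was -0.642 (exact permutation p = 0.154), and the 4 w326 libraries were too few for a value. Leaving out any single library gave r of -0.76 to -0.573, and without WT replicate 1, E1-KO replicate 1, either E3-KO replicate or either E1&E3-dKO replicate the exact permutation p was above 0.05. The corner share and depth had r of 0.536 (permutation p = 0.110) and rho of 0.43. Without WT replicate 2, which listed 20 pairs, that r was 0.824 (exact permutation p = 0.00566).

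**Figure D4:**
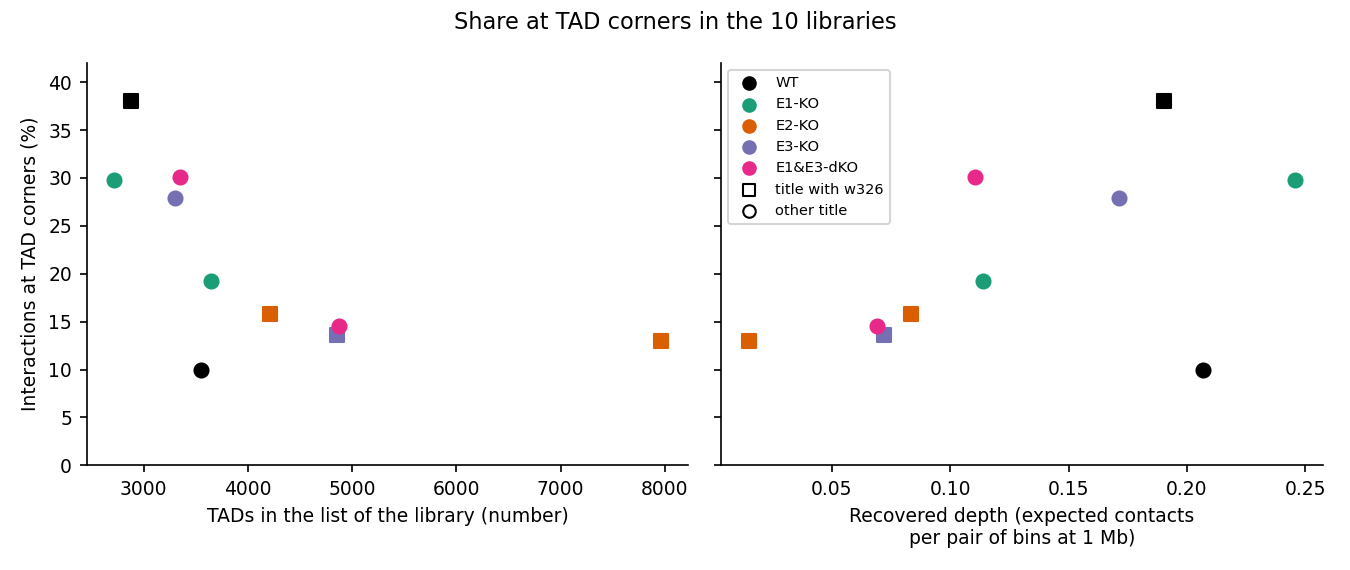
Each point is one of the 10 libraries, with the share of its interactions under 2 Mb at TAD corners (%) against the number of TADs in its list and against recovered depth, coloured by genotype and shaped by title. The corner share is lower where more TADs were listed (r = -0.617), and the 2 libraries of a genotype often lie far apart.

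Most short interactions were listed once, and a small set recurred. A pair was counted in a library that listed a pair with both ends within 1 bin of it. Of the 1943 pairs, 1229 were found in 1 library, and 714 (36.7%) in at least 2, against 9.34% of all 14670 interactions. At least 5 libraries held 171 pairs (8.80%, against 3.26%), at least 8 held 61 (3.14%, against 1.61%), and all 10 held 23 (1.18%, against 0.579%). Shares of all interactions, here and below, depend on the long lists of E1&E3-dKO replicate 2 (6014 pairs) and E2-KO replicate 1 (3497 pairs). Only 282 and 626 of those pairs were short interactions outside the windows. The part of list length in these contrasts was not tested. The share of a library's pairs found in another library ranged from 34.4% in E1-KO replicate 1 to 90% in WT replicate 2.

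Pairs found in 5 to 10 libraries had longer distances and a lower corner share than the others when listings were pooled. Their median distance was 230 kb against 170 kb for pairs of 1 library. Their listings were at corners in 13.5% of cases, against 22.9% for pairs of 1 library and 27.4% for pairs of 2 to 4 libraries. Within single libraries, pairs of 1 library were at corners more often than these in 6 of 10. Their median enrichment was 34.7-fold against 12.3-fold for pairs of 1 library, an order that held in 7 of 10 libraries.

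The recurrent pairs were concentrated in few places. Of the 171 pairs found in at least 5 libraries, 71 lay in 5 windows of 1 Mb. The window at chr12 116 to 117 Mb held 22 and that at chr6 130 to 131 Mb held 20. The windows at chr14 53 to 54 Mb and chr12 115 to 116 Mb held 10 each, and that at chr7 24 to 25 Mb held 9. In contrast, a short interaction of any kind lay in 753 windows of 1 Mb, 401 of which had a single pair. By chromosome, short interactions were densest on chr17, with 1.31 distinct pairs per Mb, chr7 with 1.24, and chr12 and chr6 with 1.18 each, and sparsest on chrX with 0.33. Chromosomes 9, 11, 15, 16 and 18 held no pair of 5 or more libraries.

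Touching pairs were joined into 1491 groups. A single library held 1134 of them, at least 5 libraries held 62, and 6 groups were in every library. Of these 6, the group whose mean p was smallest joined the bins chr10:21890001-21900000 and chr10:22080001-22090000, 190 kb apart. Its strongest pair had 36 and 16 reads in the WT libraries, 50 and 49 in those of E1-KO, 52 and 58 in those of E2-KO, 37 and 43 in those of E3-KO, and 23 and 29 in the E1&E3-dKO libraries. The enrichment was 25.2-fold to 254-fold, with the highest value in E2-KO replicate 1. Both E2-KO libraries had more reads than every other library, and only WT and E1&E3-dKO overlapped in reads. The group lay inside one TAD in 35 of its 39 listings and at a corner in 2.

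Neighbouring groups on chr6 were also in all 10 libraries. The pair at 130.675 and 130.935 Mb, named by its bin centres, had 31 and 16 reads in the WT libraries, 35 and 29 in those of E1-KO, 49 and 61 in those of E2-KO, 24 and 33 in those of E3-KO, and 24 and 38 in the E1&E3-dKO libraries. The pair at 130.535 and 130.745 Mb had 29 and 20 reads in the WT libraries, 27 and 29 in those of E1-KO, 59 and 44 in those of E2-KO, 15 and 21 in those of E3-KO, and 20 and 23 in the E1&E3-dKO libraries. In both pairs, both E2-KO libraries had more reads than every other library. The group of the first was the largest of all, with 11 bin pairs, and 24 of the 41 listings of the second crossed a TAD end.

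The pair at chr12 116.685 and 116.985 Mb, 300 kb apart, had 11 to 30 reads. There were 24 and 25 reads in the WT libraries, 23 and 23 in those of E1-KO, 29 and 30 in those of E2-KO, 26 and 22 in those of E3-KO, and 11 and 18 in the E1&E3-dKO libraries. Both E1&E3-dKO libraries were below all other libraries in reads, but not in enrichment over expected contacts. That enrichment was 39.1-fold and 72.9-fold in the E1&E3-dKO libraries, and 39.989-fold and 26.0-fold in WT replicates 1 and 2. It was 37.9-fold and 67.9-fold in E1-KO, 295-fold and 99.3-fold in E2-KO, and 41.3-fold and 75.5-fold in E3-KO. None of the listings of this pair was at a corner. The pair at chr4 60.495 and 61.235 Mb, 740 kb apart, had 9 to 31 reads (median 14) and an enrichment of 14.4-fold to 301-fold. All of its 13 listings were in neither class of TAD position. The pair at chr3 93.635 and 94.035 Mb, 400 kb apart, had 6 to 35 reads (median 21) and crossed a TAD end in 13 of 15 listings.

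Found in 9 libraries were groups at chr12 116.415 and 117.015 Mb, chr4 3.455 and 3.655 Mb, and chr7 67.525 and 67.625 Mb, all missing in WT replicate 2 alone. That library had the fewest listed pairs of all. A group at chr5 146.335 and 146.525 Mb was missing in E1&E3-dKO replicate 1 alone and had 11 to 27 reads (median 19) elsewhere.

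**Figure D5:**
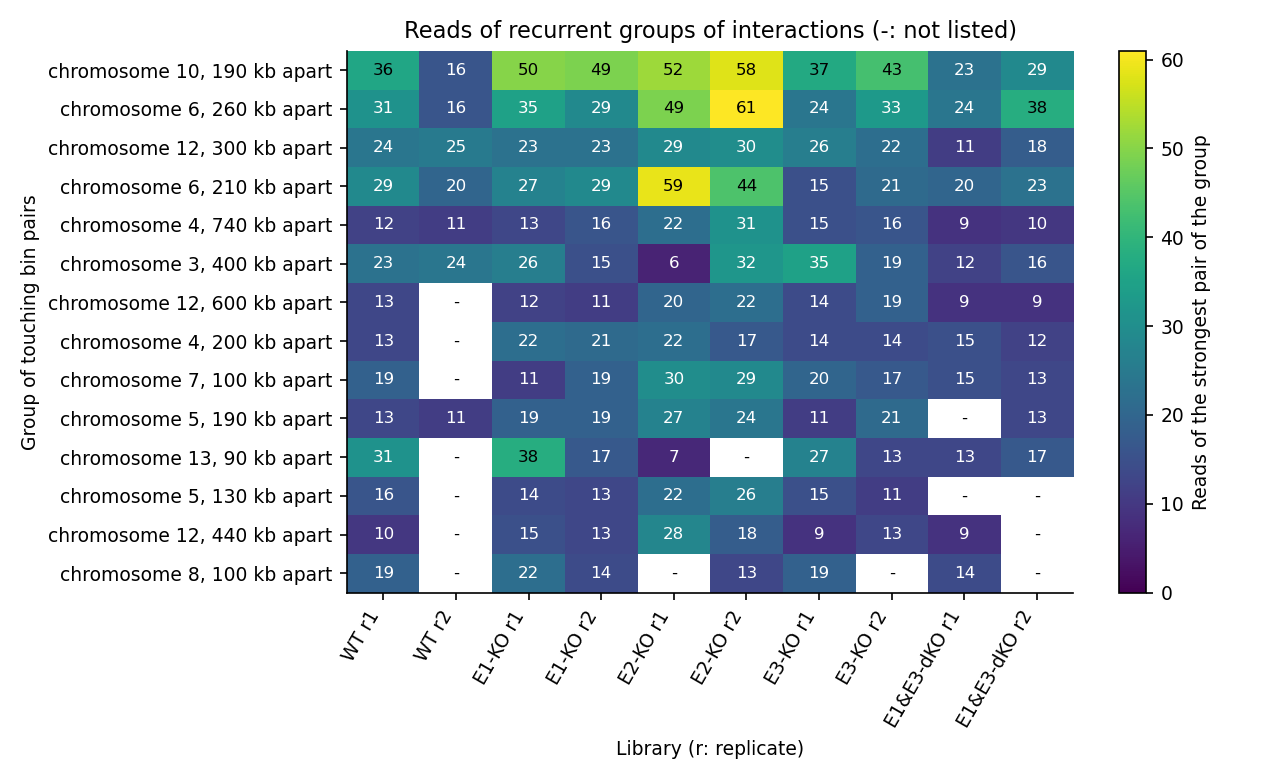
Each cell gives, for a recurrent group of touching bin pairs (rows, named by chromosome and distance in kb) and a library (columns), the reads of its strongest pair, with a dash where the group was not listed. The upper 6 groups were listed in all 10 libraries, and WT replicate 2 has more gaps than any other library.

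Groups found at TAD corners in most libraries were, with 1 exception, not among the 10 most recurrent ones. A group was counted at a corner in a library where any of its bin pairs was. The group at chr13 23.525 and 23.615 Mb was at a corner in all 8 libraries that listed it. Of its 21 listings, 16 were at a corner and 5 inside one TAD. It had 31 reads in WT replicate 1, 38 and 17 in E1-KO, 7 in E2-KO replicate 1, 27 and 13 in E3-KO, with 13 and 17 in the double knockout. WT replicate 2 and E2-KO replicate 2 did not list it. The TAD around it started at 23.51 to 23.52 Mb and ended at 23.62 to 23.63 Mb, with a score of 2.15 to 4.06.

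The group at chr5 23.225 and 23.355 Mb was at a corner in all 7 libraries that listed it, with 11 to 26 reads (median 15). All of its 11 listings were at a corner. Its TAD started at 23.20 to 23.21 Mb and ended at 23.36 to 23.37 Mb. Neither E1&E3-dKO library listed it, nor did WT replicate 2. The group at chr12 89.095 and 89.535 Mb was at a corner in 6 of 8 libraries and in 12 of its 20 listings. Its TAD ran from 89.08 or 89.09 Mb to between 89.53 and 89.55 Mb. The group at chr8 87.235 and 87.335 Mb was at a corner in all 6 libraries that listed it and in all 8 listings. It had 13 to 22 reads, and its TAD ran from 87.22 to 87.35 Mb in each library. The exception, the chr5 group at 146.335 and 146.525 Mb, was at a corner in 5 of 9 libraries but in only 5 of its 26 listings. Of the rest, 10 were inside one TAD, 7 across a TAD end and 4 in neither class. Of 428 pairs listed in the same bins by at least 2 libraries, 231 had the same TAD position in every library, and of 155 at a corner in at least 1 library 57 were at a corner in every one.

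Few bins had many partners. Of 3194 bins in a short interaction, 2660 had 1 partner and 9 had at least 5. The bin centred at chr5 15.045 Mb had 6 partners, in 2 libraries, and the bin at chr13 23.525 Mb, which is an end of the corner group above, had 5 partners in 8 libraries. The pair with the most reads joined bins 20 kb apart at chr8 113.345 and 113.365 Mb, with 47 reads in WT replicate 1 and 63 in E1-KO replicate 1. Its enrichment was 2.65-fold and 3.93-fold. The other groups with the most reads in 1 library were those on chr6 above, with 61 reads at 121-fold enrichment and 59 reads at 290-fold.

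Interactions of one genotype were found for E2-KO and E1-KO only. Pairs in both libraries of a genotype and in none of the other 8 numbered 78 for E2-KO (4.01% of the short pairs, against 1.12% of all interactions) and 3 for E1-KO (0.154%, against 0.0204%). There were 0 for WT, E3-KO and E1&E3-dKO, against 0.0% of all interactions for each. Among pairs in at least 2 libraries, those of E2-KO alone were 78 of 714 short pairs and 164 of 1370 of all interactions. These are counts with no test, and both E2-KO libraries carry w326 titles and list many pairs.

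The 78 E2-KO pairs spanned 20 to 1920 kb (median 190 kb) on 16 chromosomes, with 3 to 31 reads and a median enrichment of 57.1-fold. Of their 129 listings, 23 (17.8%) were at corners, 44 inside one TAD, 33 across a TAD end and 29 in neither class. The strongest group joined chr8 22.365 and 22.805 Mb, with 31 and 29 reads. The others with the smallest mean p were at chr7 32.485 and 34.145 Mb, with 13 and 13 reads, and at chr3 93.815 and 94.005 Mb, with 12 and 17. For E1-KO, the group at chr6 122.615 and 122.645 Mb had 39 and 25 reads at 4.10-fold and 4.51-fold enrichment, and that at chr13 22.135 and 23.675 Mb had 6 and 6 reads.

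No short pair was in all 8 knockout libraries and missing in WT, and 5 (0.257%) were in 7 of them and in neither WT library, against 0.0818% of all interactions. WT replicate 2 listed only 20 short pairs, so this is close to absence from WT replicate 1 alone. The pair at chr3 96.145 and 96.195 Mb, 50 kb apart, had 30 and 33 reads in E1-KO, 15 and 22 in E2-KO, 20 in E3-KO replicate 2, and 16 and 11 in E1&E3-dKO. The remaining 4 were neighbouring pairs at chr13 22.235 and 23.345 Mb and at chr7 24.265 and 24.645 Mb. Of the 32 pairs with a match within 1 bin in both WT libraries, 23 were in all knockout libraries and 0 were missing from every knockout library.

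The pairs shared by libraries of one genotype and of different genotypes were compared next. The shared part of the union of 2 libraries' pairs (Jaccard index) averaged 17.3% ± 14.3 within genotypes (SD, 5 library pairs) and 14.2% ± 8.04 between them (SD, 40 library pairs). The difference of 3.10 points had a one-sided exact permutation p of 0.167 (n = 10 libraries). It was 5.01% for WT, 8.32% for E1-KO, 40.7% for E2-KO, 20.1% for E3-KO and 12.2% for E1&E3-dKO. The highest value of all, 42.8%, was between E2-KO replicate 2 and E3-KO replicate 2, both with w326 titles. Pairs of w326 libraries shared 24.1% ± 14.8 (SD, 6 library pairs), against 13.03% ± 6.57 for the other 39. Without E2-KO replicate 1 the within minus between difference was -3.53 points and without E2-KO replicate 2 it was -1.61. It was 7.05 without E1-KO replicate 2 (exact permutation p = 0.0497) and 5.30 with 20 pairs per library (exact permutation p = 0.0169), both without adjustment.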

How the data were processed

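Members and lists were chosen with earlier results of these data known. Per the submitters' processing notes, HiC-Pro 2.10.0 and HOMER were used with the mm9 build; the interaction caller and its model are not given in the sources used here. The deposited interaction lists hold, for each pair of 10 kb bins, a read count, a p-value with its adjusted value (never above 0.01 in the files), and a bias ratio for each end, as the authors deposited them. The deposited TAD lists give domains of 60 kb to 2 Mb with a score of at least 1.5, with no method in the labels. The list of WT replicate 2 holds 932 lines for 466 pairs, and was read once per pair.

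Expected contacts were solved from each count and p-value as a Poisson mean, and depth is their value for an average pair of bins 1 Mb apart, since total counts are not given in these lists. Library totals were thus not used, and the lists give no interval for a share beyond the spread between libraries. Groups of touching pairs were named by fixed rules: most libraries (10 groups), both libraries of a genotype and no other (3), TAD corners in most libraries (5), most partners (5 bins) and most reads (3). Mean p ranked the groups of one genotype. It also broke ties among groups of most libraries and, after the number of libraries, among those at TAD corners. Tests of genotypes were exact permutations over libraries. Relations over all 10 libraries used 100000 random permutations, and those over fewer libraries used all permutations. The 17 main tests and the 3 main relations were adjusted by Benjamini-Hochberg, and p-values under other settings were not adjusted. Tests were run in Python 3.11.15 with numpy 2.4.6, pandas 2.3.3 and scipy 1.17.1, and were tested on simulated data. Replicate numbers did not pair the libraries, since 2 of 10 correlations of same-numbered deviations between genotypes were over 0.1 (range -0.16 to 0.17). Alternatives changed the p-value limit, windows, distance, tolerance, TAD list, matching, number of pairs and libraries. No gene or sequence was assigned, since no mm9 reference was used here.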

Additional observations from a re-analysis of the deposited data

How the results depend on the processing

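Of 455 values recomputed under other settings, 392 counted as unchanged, 181 of them in settings that left out no library. Unchanged meant the same sign and side of the threshold, or a similar size for counts, which does not show stable values. The squared difference between libraries of one genotype could move from above to below its mean for all pairings and still count as unchanged. Over that mean, it was 1.47 for corner pairs, and 0.616 with corners of 10 kb. For pairs across a TAD end it was 1.18, and 0.479 with WT TADs. With labels permuted within replicate numbers (replicate block), the knockout minus WT differences kept their values and had exact permutation p from 0.12 (number 1.67, across a TAD end 6.73) to 0.76, with no change of call.

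Several differences had no fixed sign. With 20 pairs per library, the knockout minus WT difference was 0.24 (log2 reads), 10.5 (inside one TAD), -4.52 (across) and 6.25 points (found elsewhere), the squared difference between libraries of one genotype, over its mean for all pairings (the spread ratio), was 0.198 for inside pairs (exact permutation p = 0.0296) and the overlap difference was 5.30 (exact permutation p = 0.0169). Pairs of one genotype then numbered 0 (E1-KO), 2 (E2-KO), 2 (E3-KO) and 1 for the double knockout. At 30-fold enrichment the differences were 0.18 (log2 reads), 5.64 (corner), 6.44 (inside) and 9.69 (found elsewhere). Inside pairs differed by 1.38 with touching pairs counted once and by 5.28 with corners of 40 kb. With other libraries' TADs the spread ratio of inside pairs was 0.272 (exact permutation p = 0.00741) and the difference across 12.9 (exact permutation p = 0.0222), which was 10.5 (exact permutation p = 0.0222) with WT TADs. Those WT TADs include the own TADs of the WT libraries and of no knockout library. At adjusted p of 0.001, E1-KO had 1 such pair and the relation of corner share to TADs had r = -0.488 (permutation p = 0.154). With the windows included E2-KO had 127 such pairs. E1&E3-dKO had 3 when matched in the same bins and 2 within 2 bins. The causes were not tested.

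Leaving out each library in turn, the knockout minus WT difference ranged from -0.30 to 3.63 (log2 number), -0.14 to 0.035 (log10 distance; 0.035 without WT replicate 2), -17.6 to 9.95 (corner), -6.78 to 4.07 (inside; 4.07 without WT replicate 2), 5.77 to 8.55 (across; exact permutation p = 0.0278 without E2-KO replicate 1) and -26.1 to 12.5 (found elsewhere; 12.5 without WT replicate 2 and 4.19 without E1-KO replicate 1). The overlap difference ranged from -3.53 and -1.61 without either E2-KO replicate to 7.05 (exact permutation p = 0.0497) without E1-KO replicate 2. The relation of number to depth had r of -0.65 to 0.38 (above 0 without WT replicate 2, 0.171, either E2-KO replicate, 0.38 and 0.0040, or E3-KO replicate 1, 0.021), that of corner share to TADs -0.76 to -0.573 and that of corner share to depth 0.456 to 0.824. Where a genotype loses a library, each pair of its other library alone counts as its own, so counts of one genotype reached 0 to 141 for WT, 3 to 476 for E1-KO, 78 to 357 for E2-KO, 0 to 72 for E3-KO and 0 to 151 for the double knockout.

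The lists hold only pairs past a p-value limit, so a pair that is not listed was not shown to be absent. With 2 libraries per genotype no single knockout can pass a test against WT.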

Other observations

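Larger groups of touching pairs were mostly drawn out in one direction. Of 23 groups with at least 5 bin pairs, 12 lay along a line of constant distance between the ends, 3 lay across such a line, and 8 did neither. The largest, with 11 bin pairs at chr6 130.675 and 130.935 Mb, was found in 10 libraries. These shapes were described after the values were seen, and no test was run on them.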
